A study of Homo sapiens with 4 samples.

Results

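The regions described here are stacked peaks of ADAR, the enzyme that deaminates adenosine in double-stranded RNA: stretches where 3 or more reproducible eCLIP peaks touched each other on the same strand. The authors' list of peaks that combines both replicates held 1717 rows, of which 23 lay on the mitochondrial chromosome and were left out. Rows on the same strand were merged when they overlapped or touched. Of the 1694 rows outside the mitochondrial chromosome, 646 (38.1%) belonged to 181 merged sites of 3 or more rows, and these are the stacked sites. The rest fell into 296 sites of 2 rows and 456 sites of 1 row. The members were chosen by measured values: the positions of the listed rows, all of which had a listed log2 fold and −log10 p of at least 3. Those values are given as a description, and no test was made on them.

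Enhanced crosslinking and immunoprecipitation (eCLIP) maps where a protein touches RNA in living cells: ultraviolet light links protein and RNA, the RNA is trimmed, and the fragments that come down with an antibody are compared with an input library. ADAR binds double-stranded RNA through repeated binding domains that recognise the helix more than the bases. Its substrates in human cells include long hairpins formed by inverted repeats in introns and untranslated regions. Where a peak caller divides a bound stretch into several intervals, each has its own fold of immunoprecipitate (IP) over input.

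The study had 2 IP libraries made with an ADAR1 antibody and 2 input libraries, numbered as replicates 1 and 2, all from untreated K562 cells. K562 is a human leukaemia line with erythroid features. Cells were crosslinked with 254 nm light at 400 mJ/cm2, RNase I trimmed the RNA, and RNA was recovered from the gel at 75 kDa above the protein's size. The labels do not tell whether the replicates were separate cultures, so their spread may be technical. Clusters lay in the gene spans of 15 of 15 erythroid marker genes in replicate 1 and 14 of 15 in replicate 2, where KLF1 had 0. Of 8 hepatocyte markers, only TF held a cluster, in replicate 1, while ALB, APOA1 and APOB had 0. Of 8 T and B lymphocyte markers, 3 held clusters in replicate 1, CD3D and PAX5 among them, and 2 in replicate 2, PAX5 among them. IP depth was 3.33 times input depth in replicate 1 and 0.553 times in replicate 2, if the commonest fold stands for 3 IP reads over 1 input read.

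Sequence was at hand for 3 stacked sites, in RefSeq promoter windows of GRCh38.p14, which run from 250 bases before a transcript start to 50 after it. The site in CTBP2, a transcriptional corepressor gene, lay wholly in such a window and shows what a stack looks like base by base. It covered 67 bases at chr10:125158833-125158899 on the minus strand, from 122 to 56 bases before the start of that window's transcript and inside the longer CTBP2 gene span. In the window below, read 5′ to 3′ on the strand of the site, capitals mark the stacked site.

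CTBP2 window, chr10:125158728-125159027, minus strand: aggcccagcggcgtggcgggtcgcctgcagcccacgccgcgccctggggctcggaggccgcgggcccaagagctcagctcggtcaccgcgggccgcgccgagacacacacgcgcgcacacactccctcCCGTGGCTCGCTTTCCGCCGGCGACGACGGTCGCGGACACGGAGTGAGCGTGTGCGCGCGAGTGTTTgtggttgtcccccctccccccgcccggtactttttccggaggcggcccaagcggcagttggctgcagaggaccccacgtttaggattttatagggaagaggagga

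The CTBP2 stack had 3 rows, printed next in 5′ to 3′ order because their folds climbed along the site.

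CTBP2 row 1, 9 bases: ccgtggctc
CTBP2 row 2, 38 bases: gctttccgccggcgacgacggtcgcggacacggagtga
CTBP2 row 3, 20 bases: gcgtgtgcgcgcgagtgttt

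The log2 fold of row 1 was 2.80 in replicate 1 and 6.59 in replicate 2. Row 2 had 4.04 and 6.84, and row 3 had 4.69 and 7.12, so the fold rose at each step in both replicates. The share of G and C bases was 77.8%, 71.1% and 65.0% in rows 1 to 3. It was 70.7% over the window, against a median of 58.7% over all 35116 promoter windows. The same window also held a CTBP2 site of 1 row, which ended 12 bases upstream of the stack and had a listed log2 fold of 4.09.

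MAPKAPK5, a protein kinase gene, held a stack of 82 bases at chr12:111842260-111842341 on the plus strand that began 32 bases after the transcript start. NADK2, the mitochondrial NAD kinase gene, held a stack of 89 bases at chr5:36220754-36220842 on the minus strand, and its 5′ end reached into the window of the antisense gene NADK2-AS1. The bases of these stacks that the windows hold are printed to show where the cuts between rows fell. Capitals mark bases of the highest row of the stack, and the MAPKAPK5 stretch lies in its lowest row.

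MAPKAPK5, first 18 bases of row 1: gggagcagcggcgccgag
NADK2, first 38 bases, rows 1 and 2: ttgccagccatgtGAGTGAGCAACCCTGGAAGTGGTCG

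No stacked site shared a base with a microRNA hairpin. The nearest case lay just outside the rule: a site of 2 rows in PPARGC1B, the gene of a nuclear receptor coactivator, covered 54 of the 66 bases of the MIR378A hairpin at chr5:149732825-149732890 on the plus strand. Capitals below mark the bases covered by that site.

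MIR378A hairpin: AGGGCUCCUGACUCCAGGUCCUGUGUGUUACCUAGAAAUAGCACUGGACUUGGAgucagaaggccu

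Row 1 of that pair had a listed log2 fold of 4.99 and row 2 had 6.19, a step upward in both replicates, from 4.12 to 5.15 in replicate 1 and from 5.85 to 7.23 in replicate 2. The pair resembled a stack in the way it was cut but had too few rows to be counted.

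Stacked sites were wider than single-row sites at the median and were cut into shorter rows. The median width was 90 bases (range 48 to 473) for the 181 stacked sites, 73 for the 2-row sites and 69 (range 7 to 220) for the single-row sites. Of the stacked sites, 36 (19.9%) were narrower than the median single-row site and 4 (2.21%) were wider than the widest. The rows themselves had a median width of 24 bases (range 2 to 160) in stacks, 38 in 2-row sites and 69 in single-row sites. The median stack was as wide as the upper quartile of single-row sites, which was also 90 bases, so the widths of both kinds overlapped. There were 117 stacks of 3 rows, 46 of 4, 9 of 5, 4 of 6 and 2 of 7, and 1 each of 8, 9 and 11 rows. Median width grew with the number of rows, from 81 bases at 3 rows to 98 at 4 and 111 at 5, and width and number of rows are not independent.

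**Figure D1:**
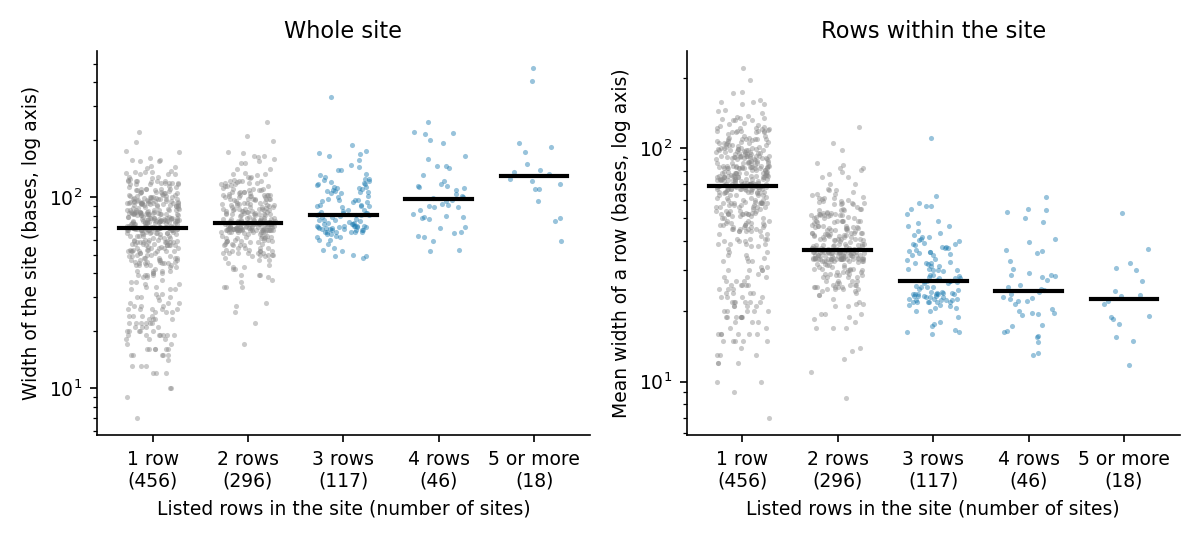
Width of merged sites (left) and mean width of a row in each site (right), in bases on log axes, by the number of listed rows; each point is a site and bars are medians. Stacks of 3 rows had a median width of 81 bases against 69 for single-row sites, while their rows were shorter.

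In 170 of 181 stacks the rows were clusters of a single replicate placed end to end. All 465 boundaries inside stacks had neither a gap nor an overlap. A boundary coincided with a cluster edge of replicate 1 alone in 253 cases, of replicate 2 alone in 190 and of both in 22, and with neither in 0. Of the 646 rows, 359 had exactly the interval of a replicate 1 cluster, 286 that of a replicate 2 cluster, and 1 that of both. In single-row sites the balance lay the other way, with 165 rows on replicate 1 intervals and 287 on replicate 2 intervals. There were 90 stacks wholly on replicate 1 intervals, and a single replicate 2 cluster lay over 39 of them. Of the 80 wholly on replicate 2 intervals, 13 had a single replicate 1 cluster. The other replicate had as many clusters or more over 15 of those 90 and 38 of those 80, so a stack was not always a finer cut than the other replicate's. The remaining 11 stacks mixed intervals of both.

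Touching runs were rare in the lists of single replicates. Of all clusters, 2.37% in replicate 1 and 2.66% in replicate 2 lay in a run of 3 or more touching clusters. Among enriched clusters, those with a log2 fold and a −log10 p of at least 3, the shares were 36.4% and 14.8%. Of all clusters, 1.39% were enriched in replicate 1 and 12.8% in replicate 2. An enriched cluster overlapped 583 member rows (90.2%) in replicate 1, 609 (94.3%) in replicate 2 and 546 (84.5%) in both. The last share was 80.3% over all 1694 rows and 75.7% over single-row sites. By replicate the directions differed. Over single-row sites the share was 76.8% in replicate 1, below that of member rows, and 98.7% in replicate 2, above it. These shares are a description, because values of both replicates went into the list that chose the rows. A row did not need an enriched cluster in each. In the MIR17HG stacks of 11 and 9 rows, no row was overlapped by an enriched cluster in replicate 2.

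The log2 fold of rows in stacks was close to that elsewhere, and higher at the top row, a maximum over several rows. The median listed log2 fold was 4.72 over the 646 rows (range 3.02 to 8.08), 4.59 over rows of 2-row sites and 4.51 over single-row sites. The highest row of a stack had a median of 5.21, and the mean over a stack weighted by row width had a median of 4.77. The median −log10 p was 10.4 for rows of stacks and 8.88 for single-row sites. It stood at its limit of 400 in 4 member rows.

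The listed fold is the mean of both replicates on the row's own interval, which gives the fold in each replicate even where only the other had that cluster. On the same intervals the median log2 fold was 4.08 in replicate 1 and 5.46 in replicate 2. Replicate 2 was higher in 529 of 646 rows (81.9%), and the median absolute difference between replicates was 1.59. For single-row sites the medians were 3.68 and 5.30. In 526 member rows both replicates reached 3. Replicate 1 was under 3 in 82 rows over 43 host genes or loci, and replicate 2 in 38 rows over 6. Of those 38, 23 lay in MIR17HG, 6 and 3 in loci without a gene on chromosome 21, 4 in POLG-DT, and 1 each in H4C15 and RNA28SN3. Across member rows Pearson's r between replicate folds was 0.118 and Spearman's rho 0.147 (n = 646 rows, which share libraries and neighbours). Without the MIR17HG rows they were 0.237 and 0.229 (n = 623), and across single-row sites 0.261 and 0.279 (n = 455). These correlations were weak.

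**Figure D2:**
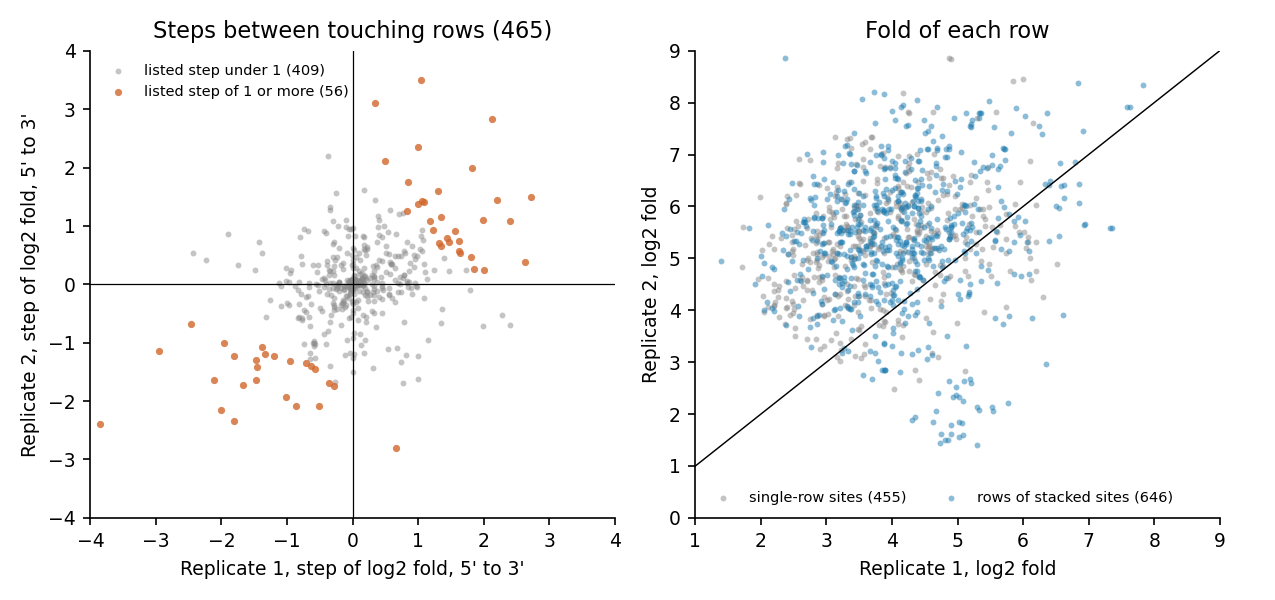
Left, the step of log2 fold between touching rows of stacks, 5′ to 3′, in replicate 1 (x) and replicate 2 (y), with the 56 listed steps of at least 1 in colour. Right, the log2 fold of each row in replicate 1 (x) and replicate 2 (y), for 646 rows of stacks and 455 single-row sites, with the line of equal values; the group of stack rows at the lower right holds the 23 rows of MIR17HG.

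Steps of fold between touching rows were mostly small. The median absolute step was 0.31 on the log2 scale over the 465 boundaries, with 119 (25.6%) under 0.1 and 56 (12%) of at least 1. It was 0.30 in 2-row sites, and the median difference between neighbouring single-row sites of 1 gene was 0.54 over 116 pairs. The step was larger than its SD over the 2 replicates at 228 of 465 boundaries (49%), the median SD being 0.30. Neighbouring rows can draw on the same reads, which these values do not separate.

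Most steps had the same direction in both replicates, with a higher share among large steps, a difference that was not tested. On the same intervals, 277 of 465 steps (59.6%) had the same sign in both replicates, and 41 were at 0 in a replicate. Where each replicate's own clusters were used, 104 of 178 steps (58.4%) did. Picking the 79 steps of at least 1 in replicate 1, whose median size was 1.42, 59 (74.7%) had the same sign in replicate 2, with a median of 0.66 along that direction. Picking the 83 such steps in replicate 2, with a median size of 1.32, 62 (74.7%) had the same sign in replicate 1, with a median of 0.58. For steps above 0 and under 1 the shares were 57.7% (of 366, picked in replicate 1) and 58.3% (of 357, picked in replicate 2). A step chosen for its size in a replicate was thus seen at less than that size in the other. Sites of 2 rows gave 38 of 49 and 28 of 43 for steps of at least 1. Across the 465 steps Pearson's r between replicates was 0.401 and Spearman's rho 0.358, as a description over steps that share rows.

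The longer stacks often climbed to an inner row and then declined, while stacks of 3 rows were highest in any of their rows. A longer stack has more inner rows and more rows that can be highest, so shares by number of rows are not on equal terms. Of the 64 stacks of 4 or more rows, the listed fold rose to an inner row and fell after it in 37 (57.8%), only rose in 3, only fell in 6 and did neither in 18. A rise to an inner row and a fall after it was found in 35 of 64 by replicate 1 alone, in 38 by replicate 2 alone and in 26 in both. Steps of any size counted, so the 26 include the almost flat stack in POLG-DT. The top row could also differ between replicates, as in P4HA1. Of the 117 stacks of 3 rows, 42 (35.9%) were highest in the middle, 33 at the 5′ end and 42 at the 3′ end. Over all stacks the highest row was inside in 87 of 181 (48.1%), at the 5′ end in 23.8% and at the 3′ end in 28.2%. The highest row was the same in both replicates in 57 of 117 stacks of 3 rows, 20 of 46 of 4 rows and 4 of 18 of 5 or more.

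KLC1, which encodes a light chain of the motor kinesin, held a stack of 8 rows that rose and then fell, over 172 bases at chr14:103689014-103689185 on the plus strand. Its listed log2 fold ran 3.41, 3.84, 4.17, 4.84, 5.32, 4.66, 3.98 and 3.66 from 5′ to 3′. In replicate 1 the fold went from 3.79 in row 1 to 5.97 in row 5 and 4.14 in row 8, and in replicate 2 from 3.02 to 4.66 and 3.18. Every step had the same sign in both replicates, and row 5 was the highest in each. All 8 rows were intervals of replicate 1, and a single replicate 2 cluster lay over the site, so the cuts were those of replicate 1. If the commonest fold stands for 3 IP reads over 1 input read, the ratio of row 5 in lowest terms was 209 over 1 in replicate 1. In replicate 2 that ratio was 14 over 1. Lowest terms do not give the numbers of reads.

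ABHD5, a cofactor of fat breakdown, had 4 rows over 82 bases at chr3:43716537-43716618 on the plus strand, with the highest fold at the 5′ end and the lowest at the 3′ end. The listed folds were 7.08, 5.79, 5.87 and 3.79. Row 1 had 6.37 in replicate 1 and 7.80 in replicate 2, and row 4 had 4.02 and 3.55. RPS3A, a ribosomal protein gene, climbed instead from 3.82 in row 1 to 6.10 in row 2 of 4, over 121 bases at chr4:151103305-151103425 on the plus strand. That step was 4.40 to 5.45 in replicate 1 and 3.24 to 6.74 in replicate 2. Ribosomal protein genes have near-identical pseudogenes, and the placing of reads with several matches is not stated in the labels. MED15, a subunit of the Mediator complex, had its large step at the 3′ end, from 2.93 to 5.65 in replicate 1 and from 5.28 to 6.78 in replicate 2. LOC105369896, a long noncoding RNA gene, had a stack whose row 2 stood above row 1 by 2.13 in replicate 1 and by 2.83 in replicate 2. These 4 genes held 4 of the 5 largest steps, and since the listed step is the mean of both replicates, that choice largely sets its sign in each.

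**Figure D3:**
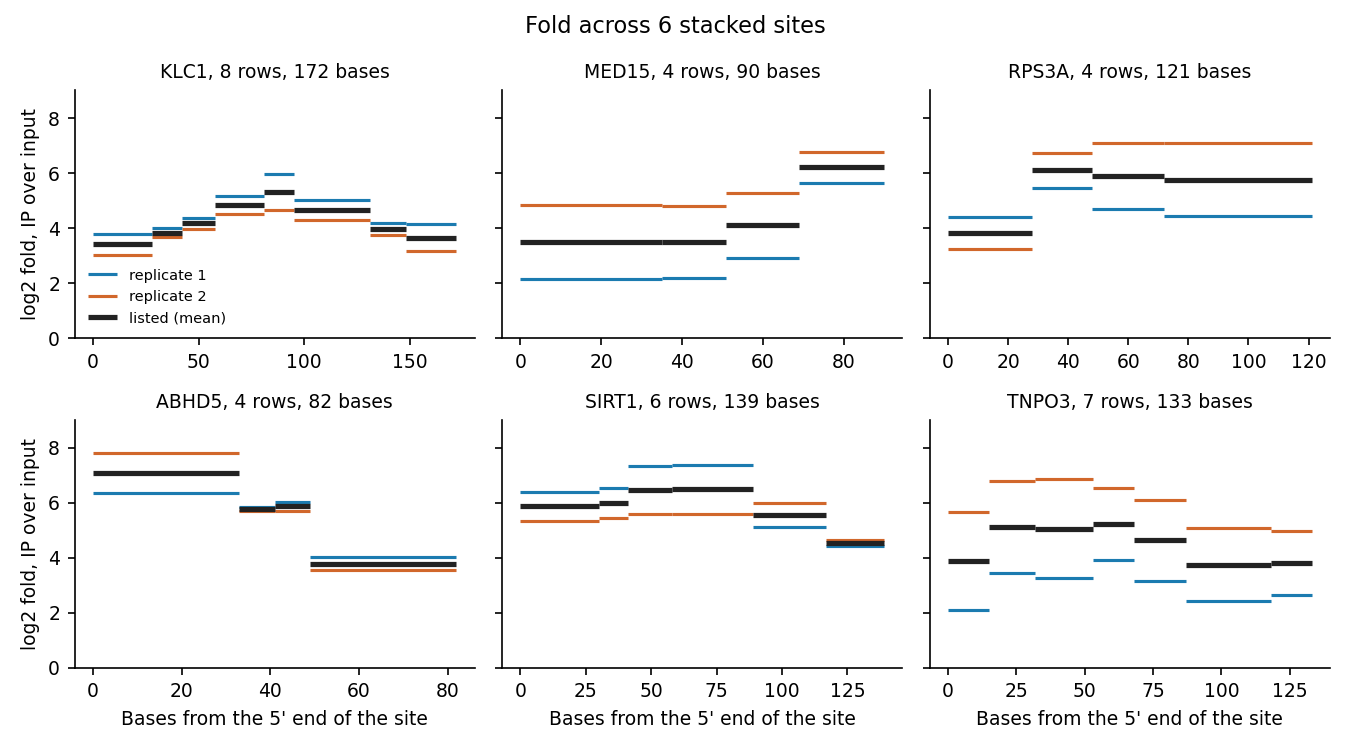
Log2 fold of IP over input (y) against bases from the 5′ end of the site (x) for 6 stacked sites; each horizontal bar is a row, black for the listed mean, blue for replicate 1 and orange for replicate 2. KLC1 rose to 5.32 in row 5 and fell to 3.66, MED15 rose to 6.21 in its last row, and replicate 2 lay above replicate 1 throughout TNPO3.

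SIRT1, a deacetylase that uses NAD, had 6 rows over 139 bases at chr10:67886290-67886428 on the plus strand. Replicate 1 peaked at 7.36 in row 4 and replicate 2 in row 5, and both were lowest in row 6, at 4.42 and 4.66. TNPO3, a nuclear import receptor of splicing factors, had 7 rows over 133 bases at chr7:128998378-128998510 on the minus strand. Its folds lay between 2.11 and 3.90 in replicate 1 and between 4.96 and 6.85 in replicate 2, so the replicates did not overlap at this site. KDM6A, a histone demethylase gene, had 6 rows over 193 bases, in which replicate 1 ranged from 3.22 to 5.15 and replicate 2 only from 5.00 to 5.61.

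Among the highest stacks were those in JARID2, a Polycomb cofactor gene, EGLN1, an oxygen-sensing hydroxylase gene, and ABCC1, a drug transporter gene. JARID2 had 3 rows over 50 bases with 7.58, 7.62 and 6.92 in replicate 1 and 7.91, 7.92 and 7.45 in replicate 2. These folds were high in every row and lowest in row 3 in both replicates. EGLN1 reached 6.24 in row 2 in replicate 1 and 7.71 in row 1 in replicate 2, and ABCC1 reached 6.03 in row 4 and 7.81 in row 3, so in both sites the top row differed between replicates.

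Some stacks were almost flat. Among those of 4 or more rows, the smallest range was at POLG-DT, a noncoding transcript beside the mitochondrial polymerase gene, whose site also overlapped the tRNA gene TRR-TCG1-1. Its 4 rows over 52 bases ran from 3.85 to 3.89 in replicate 1 and from 2.84 to 2.85 in replicate 2. DOT1L, a histone methyltransferase gene, lay between 2.05 and 2.20 in replicate 1 and between 3.98 and 4.15 in replicate 2. AXIN1, a scaffold of Wnt signalling, CD46, a complement regulator, and LINC01002 were the other flat stacks by the same measure. AXIN1 spanned 4.31 to 4.64 in replicate 1 and 5.10 to 5.25 in replicate 2, and CD46 reached 4.06 in replicate 1 and spanned 4.20 to 4.47 in replicate 2. LINC01002 spanned 4.61 to 4.89 and 5.18 to 5.40. In each row of these 5 sites the replicates were farther apart than replicate 1 ranged along the stack. Set against the range of replicate 2, this did not hold in every row of CD46.

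The widest stacks were the pair in MIR17HG, at 473 and 406 bases, followed by RNF115 with 333, RRM2 with 247 and ANP32B with 220. RNF115, a ubiquitin ligase gene, reached that width with 3 rows, of which row 2 had 160 bases and row 3 had 147. Its middle row was the highest in replicate 1, at 5.60, and the lowest in replicate 2, at 4.53. RRM2, the small subunit gene of ribonucleotide reductase, fell from 6.85 in row 1 to 4.54 in row 4 in replicate 1 and from 6.08 to 3.30 in replicate 2. ANP32B, a histone chaperone gene, had folds of 1.39 to 2.60 in replicate 1 and 3.71 to 4.94 in replicate 2 and rests on replicate 2 for a log2 fold above 3.

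Stacks recurred in a few genes. There were 152 host genes, and 17 of them held 2 or more stacks, 38 sites in all. MIR17HG, from whose transcript the miR-17-92 microRNAs are cut, held 3 stacks with 23 rows that nearly joined over 1014 bases, at chr13:91348171-91348279, chr13:91348290-91348695 and chr13:91348712-91349184 on the plus strand. They were 10 and 16 bases apart, and the last ended 1420 bases before the MIR17 hairpin, the first hairpin of the cluster. In replicate 1 the 23 rows lay between 4.62 and 6.34, and in replicate 2 between 1.40 and 2.97, with no overlap. The last row was the highest in both, at 6.34 and 2.97. If the commonest fold stands for 3 IP reads over 1 input read, the ratio of that row in lowest terms was 1351 over 5 in replicate 1. In replicate 2 it was 13 over 3.

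CDC45, a replication helicase factor, held 5 stacks with 18 rows over 3925 bases on chromosome 22, the most of any gene. Their profiles differed from each other. The stack at chr22:19500161-19500299 climbed from 3.23 to 4.87 in replicate 1 and from 3.18 to 5.38 in replicate 2. The stack at chr22:19500842-19500945 fell instead, from 4.84 to 4.44 and from 6.96 to 6.11. In the stack at chr22:19501209-19501401 the replicates went apart up to row 3. Replicate 1 fell from 3.78 to 2.95 over 4 rows, while replicate 2 rose from 4.13 to 6.44 in row 3. The last step was downward in both, at -0.38 in replicate 1 and -0.80 in replicate 2. The last 2 stacks were 3 bases apart.

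**Figure D4:**
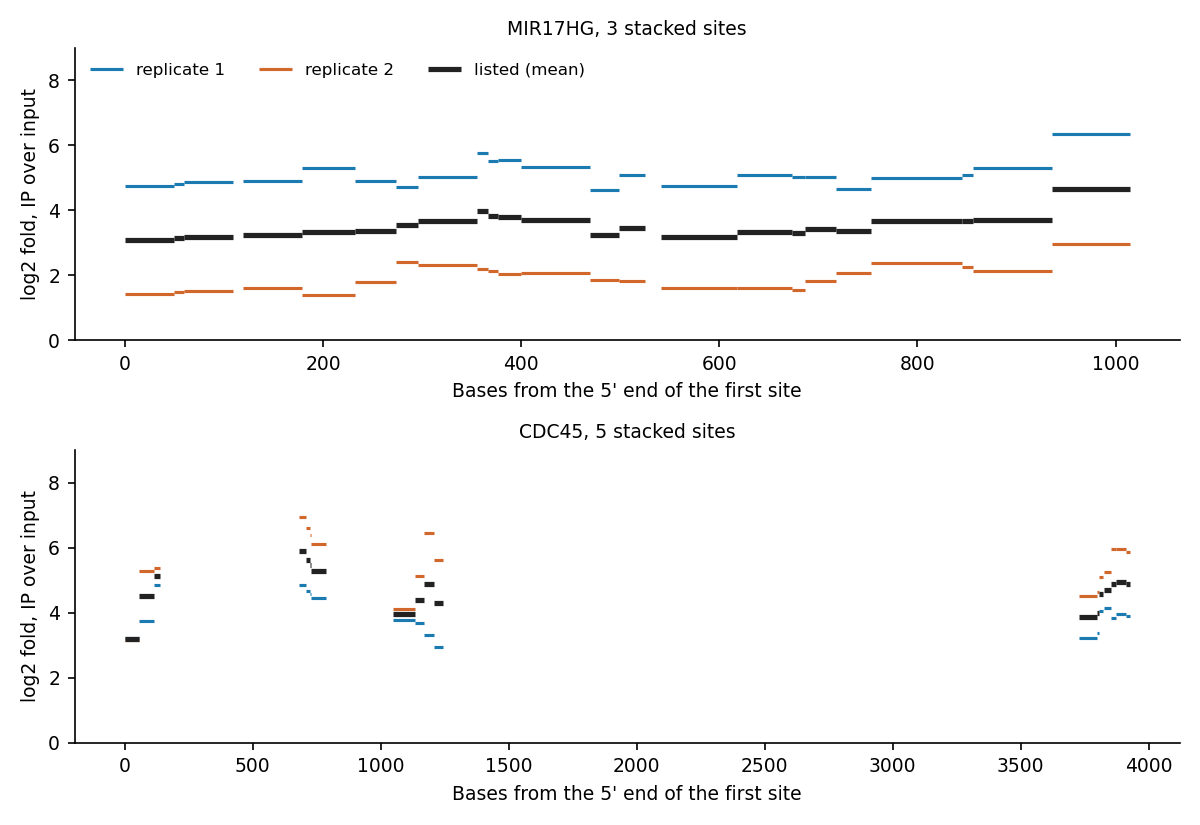
Log2 fold of IP over input (y) against bases from the 5′ end of the first stack (x) in MIR17HG (top) and CDC45 (bottom); black bars are the listed mean of each row, blue replicate 1 and orange replicate 2. In MIR17HG replicate 1 lay above replicate 2 in all 23 rows, between 4.62 and 6.34 against 1.40 and 2.97.

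XKR3, a member of the XK-related membrane protein family, held the closest pair of stacks, 1 base apart, with 5 and 3 rows on the minus strand at chr22:16811149-16811207 and chr22:16811209-16811283. Read 5′ to 3′, the upstream stack climbed from 2.97 to 3.87 in replicate 1 and from 5.11 to 6.93 in replicate 2. The downstream stack began at 4.38 and 8.04 and ended at 4.69 and 5.44. Merging over gaps of up to 10 bases joins the pair. TNPO3 held a second stack 30 bases from the first, and MED15 stacks were 70 bases apart. The other genes with 2 stacks were LOC105369896, GOLGA4, NADK2, ANKRD27, CR1L, LARP4, LUC7L, MAPKAPK5, MCM3AP, MED13, PPP6R3 and RCOR1. LUC7L, a splicing factor gene, showed both directions: one stack rose from 3.20 to 5.48 in replicate 1 and from 5.53 to 8.02 in replicate 2, and the other fell from 7.02 to 4.88 in replicate 2 while replicate 1 stayed between 3.34 and 3.56.

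At the median, stacks stood farther from other sites than single-row sites did. The median distance to the nearest other site on the strand was 11296 bases for stacks and 1099 for single-row sites, and 43 of 181 stacks (23.8%) against 38.8% had a site within 100 bases. The gap was smaller elsewhere: the upper quartiles were 520752 and 504007 bases, and 40.3% against 49.6% had a site within 1000 bases. For 2-row sites the median was 6065 bases, and 30.7% had a site within 100. Sites of every kind were joined by touching alone, so a neighbour a few bases away counts as another site. The host was a protein-coding gene for 157 stacks (86.7%) and a long noncoding RNA gene for 12 (6.63%), with 86.4% and 5.04% for single-row sites. For the rest the host was an rRNA gene in 2, a transcribed pseudogene in 2 and none in 8. The rRNA stacks in RNA45SN3 and RNA28SN3 are uncertain, since these genes have near-identical copies. For 147 stacks the host was a gene known to lie on the same strand, a strand that the choice of host preferred. The median position was 43.2% of the way along the gene from its start, against 38.1% for single-row sites. Of these 147, 14 (9.52%) lay within 3000 bases of the gene start and 8 (5.44%) within 3000 bases of its end, against 8.15% and 2.81% of single-row sites. Exons and introns were not assigned.

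Most genes of the gene lists held no site of any kind, as was so for genes at large. Of 59792 RefSeq genes of every biotype, 527 were the host of a site outside the mitochondrial chromosome. The shares in the 3 lists were above that share. The difference was not tested, and the lists were chosen with earlier results of these data known. Of 26 genes with recoded or edited transcripts, 4 had any reproducible site and 2 had a stack, MFN1 and NARF. Of 24 genes listed for inverted Alu repeats in their 3′ untranslated regions, 3 had a site and 1 a stack, MDM2. Sites were matched to whole gene spans, so whether the MDM2 stack lay in that region was not assigned. Of 29 names listed for double-stranded RNA binding proteins and sensors, 2 had a site and 0 a stack. That list held STRBP also under its alias SPNR, and it included HNRNPC, which binds single-stranded RNA. Over all sites, 152 of 527 host genes held a stack, so the listed genes that had a site are too few to set apart from the rest. MDM2, the ubiquitin ligase of p53, had a flat stack of 3 rows over 73 bases at chr12:68832833-68832905 on the plus strand, at 5.32 to 5.35 in replicate 1 and 7.81 in each row in replicate 2. MFN1, a fusion protein of mitochondria, rose from 3.75 to 4.76 and from 6.16 to 7.36 over 79 bases at chr3:179374013-179374091, its last row being 4 bases long. NARF, which binds prelamin A, was highest in the middle of 3 rows, at 3.76 in replicate 1 and 5.64 in replicate 2, at chr17:82477532-82477625.

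The single-row sites with the highest folds show that a high fold did not need a stack. HAT1, a histone acetyltransferase gene, had a log2 fold of 7.23 in a single row of 69 bases, and DLEU2, a long noncoding RNA gene, had 7.12 in 65 bases. A single-row site in PPARGC1B, just downstream of the 2-row site over the MIR378A hairpin, had 6.88 in 67 bases. USP4, a deubiquitinase gene, had 6.88 and 6.87 in single rows of 44 and 31 bases. The widest single row, 220 bases in GATA2, a haematopoietic transcription factor gene, had a log2 fold of 3.82. PSD4 had a single row of 195 bases at 6.11, and a locus without a gene at chr4:67453327-67453500 had 174 bases at 4.87.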

How the data were processed

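The authors deposited 3 peak lists, 1 for each replicate and 1 that combines them. Each held the −log10 p-value of IP over input, limited by the authors to 400, and the log2 fold of IP over input. The submitters' processing notes name the tools cutadapt 1.9 and STAR 2.4.0i. The peak caller and the way the replicates were combined are not given in the sources used here. Per-peak values are the authors'. The number of reads per library is unknown. The members and gene lists were chosen with earlier results of these data known.

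Rows were merged on the same strand at a gap of 0 bases with pandas 2.3.3, and the merging was tested on simulated intervals. For 8 of 8 intervals present in both replicates the listed log2 fold equalled the mean within 1e-06. For the rest the fold of the other replicate was taken as 2 times the listed value minus the known fold, and 1665 of 1683 such values (98.9%) fell on that replicate's whole-number read ratios, against 0 on a shifted scale (tolerance 1e-09, denominators up to 50). Host genes were RefSeq spans of GRCh38.p14 at the site midpoint, same strand first. Named sites were the 8 with the most rows, the 5 widest, the 5 with the highest row, the 5 with the largest step, the 5 with the smallest range at 4 or more rows, genes with 2 or more stacks, sites in a listed gene, and the 5 highest and 3 widest single rows. CTBP2, H4C15, the rRNA genes and the MIR378A pair were named after their values were seen. A few sites and marker genes that these rules select are not reported here. Shares carry counting error only.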

Additional observations from a re-analysis of the deposited data

How the results depend on the processing

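The count of stacked sites, 181 as reported, was 217 and 239 when rows up to 10 or 50 bases apart were merged, 136 at a −log10 p of at least 5, 138 with only rows of log2 fold 4 or more, and 181 without regard to strand. It was 477 at 2 or more rows, 64 at 4 or more, and 0 when rows had to share a base, where no width, step or highest row could be given. Built from the enriched clusters of a single replicate, it was 681 without replicate 1 and 439 without replicate 2. The median width of 90 bases became 112 at the gap of 50, 78 at 2 or more rows and 110 at 4 or more, and was 113 without replicate 1 and 97 without replicate 2. The median step of 0.31 was 0.428 without replicate 1 and 0.271 without replicate 2. The share with the highest row inside, 48.1%, was 18.2% at 2 or more rows, where a pair has no inside. It was 70.3% at 4 or more, where a larger part of the rows is inner. The share was 51.2% without replicate 1 and 46% without replicate 2. Steps of the same sign stayed between 58.4% and 62% by 4 ways of reading them, including the folds on the row's own interval (59.6%), a reading chosen after seeing the data. Member rows with an enriched cluster in both replicates, 84.5%, became 78.8% when a cluster had to cover 50% of the row, 79.4% at a −log10 p of at least 5 and 46.3% at a log2 fold of at least 4. No paired analysis was possible because no result comes from a test between groups of libraries. The last 2 measures need both replicates, so leaving out a replicate gives them no value. Each replicate had 1 IP and 1 input library, IP depth relative to input differed between them, and small denominators limit single rows: the ratio had a denominator of 1 in 315 of 643 member rows in replicate 1 and in 240 of 630 in replicate 2.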
